A study of Mus musculus with 9 samples.

Results

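The genes described here are 9 readers and writers of DNA methylation: the methyl-CpG binding domain genes Mbd1, Mbd2, Mbd3, Mbd4, Mbd5 and Mbd6, and the DNA methyltransferase genes Dnmt1, Dnmt3a and Dnmt3b. They were taken by symbol, and all 9 were found among the 51810 genes of the table. The family was chosen by a measured value, the high TPM of Mbd1 with native lipoprotein against buffer in these same libraries. For the members that comparison is therefore a description and carries no test.

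The RNA came from cultures of valvular interstitial cells (VICs), which resemble fibroblasts and populate the leaflets of heart valves. They were isolated from C57BL/6J mice, from both the mitral and the aortic valve. The groups were cells given LDL (low-density lipoprotein, the cholesterol carrier of plasma) at 50 ug/mL, cells given oxLDL (its oxidised form) at 50 ug/mL, and Control cells given buffer, each for 24 h and with 3 libraries. All groups grew in DMEM with 10% FBS, insulin, EGF and basic FGF. Values are TPM, a gene's length-corrected share of the transcripts in a library, so levels can be compared between genes; the depth of the libraries is unknown. Means are given ± SD with n = 3 libraries, and differences are between group means of log2(TPM + 1), the first-named group minus the second. The labels leave unsaid whether the 3 libraries of a treatment are from different cultures or mice. The p-values therefore reflect the spread among these libraries alone, and that spread may be technical.

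In mammals, methyl groups are placed on cytosines that precede a guanine (CpG). DNMT3A and DNMT3B place new marks, and DNMT1 copies existing ones onto the daughter strand after replication. The MBD proteins share a domain that in MBD1, MBD2 and MBD4 binds methylated CpG and brings repressors or repair to it, while mammalian MBD3, MBD5 and MBD6 do not bind the methylated pair selectively and work as parts of chromatin complexes.

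The genes spanned a wide range of levels, and their order was as follows. Mbd3, a subunit of the NuRD deacetylase and remodelling complex, was highest, at 159 to 188.7 TPM over the 9 libraries. Mbd2, which ties NuRD to methylated DNA, had 128.5 to 155.9 TPM, and Dnmt1 had 65.5 to 97.8 TPM. Mbd1 had 27.8 to 100.2 TPM. The ranges of Mbd3, Mbd2 and Dnmt1 did not overlap one another, whereas Mbd1 overlapped Dnmt1, and did so in LDL libraries alone. Below them Mbd6 had 14.02 to 21.73 TPM and Dnmt3a 12.5 to 17.1 TPM, ranges that overlap. Mbd5 had 8.67 to 12.45 TPM, just short of the lowest Dnmt3a value of 12.48 TPM. Mbd4, a glycosylase that removes thymine from mismatches left by deaminated methylcytosine, had 3.25 to 4.33 TPM, and Dnmt3b 0.62 to 1.09 TPM. Dnmt3b was thus the 1 member under the mean of 1 TPM required for testing, which 8 of the 9 passed along with 13495 genes in all. Between its lowest and highest library Mbd1 differed 3.6-fold, and the other 8 genes differed 1.19-fold (Mbd3) to 1.76-fold (Dnmt3b). The family was chosen by the LDL values of Mbd1, so its wider range is part of that choice and no separate result.

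**Figure D1:**
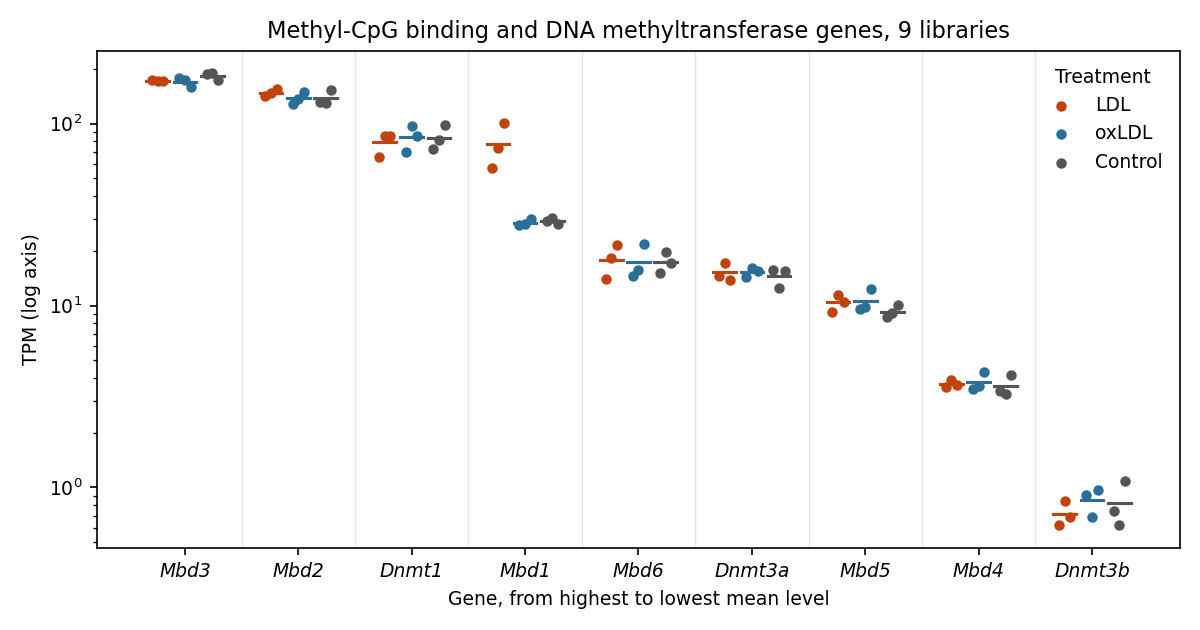
TPM (log axis) of the 9 genes, ordered by mean level, with 1 point per library and a bar at the mean of each treatment (LDL, oxLDL, Control, n = 3 each). Mbd1 stands at 57.2 to 100.2 TPM with LDL and at 27.8 to 30.4 TPM in the other 6 libraries, while the groups of every other gene overlap. Mbd1 was chosen by its LDL values, so this contrast is part of the choice.

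The sequence before the start of a gene shows how densely it carries the CpG pair that these proteins read or methylate, and it is given for the members at the top and at the bottom of the order. RefSeq promoter windows (GRCm38.p6) were matched for 7 of the 9 genes, Mbd1 and Mbd2 being the others. In the 250 bases upstream of the first start listed, the 2-letter motif CG, which reads the same on both strands, occurred 14 times for Mbd3, 22 for Mbd4, 16 for Mbd5, 17 for Mbd6, 2 for Dnmt1, 38 for Dnmt3a and 21 for Dnmt3b. Of 27025 promoters compared in the same way, with a median of 6 pairs, 29.6% held at least as many as Mbd3. The share was 16.1% for Dnmt3b, 1.81% for Dnmt3a and 80.6% for Dnmt1. Dnmt1 and Dnmt3a had 3 windows each, and Mbd5 and Mbd6 had 2 each. Their later windows were not counted, and which start these cells use was not tested. The pairs are in capitals below, 5′ to 3′, in 231 bases of Mbd3 (chr10:80399551-80399781, minus strand, 13 pairs, ending where the GENCODE gene begins) and 250 bases of Dnmt3b (chr2:153649199-153649448, plus strand, 21 pairs).
Mbd3: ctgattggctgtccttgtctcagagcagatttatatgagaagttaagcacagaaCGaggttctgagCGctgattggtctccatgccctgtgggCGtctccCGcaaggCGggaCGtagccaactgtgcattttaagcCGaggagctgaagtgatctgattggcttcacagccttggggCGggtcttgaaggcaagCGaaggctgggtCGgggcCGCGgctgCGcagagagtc
Dnmt3b: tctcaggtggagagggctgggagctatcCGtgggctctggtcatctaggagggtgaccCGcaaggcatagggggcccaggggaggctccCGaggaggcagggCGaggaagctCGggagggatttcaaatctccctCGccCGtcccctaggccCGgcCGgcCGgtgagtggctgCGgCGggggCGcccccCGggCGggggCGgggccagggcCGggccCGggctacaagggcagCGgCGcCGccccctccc
The gene with the lowest level thus held more CG pairs than the one with the highest, and no methylation was measured in these libraries.

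Markers of the labelled cell type were high in every library. All 14 valve interstitial and fibroblast markers were measured, and their summed level was 12718 to 14239 TPM with LDL, 13107 to 15393 TPM with oxLDL and 13876 to 14796 TPM in Control. Vim was the highest of them, at 4749 to 6523 TPM. The 7 endothelial markers summed to 128 to 322, 127 to 304 and 122 to 286 TPM in the same order of treatments, with the highest value in the library numbered 1 of each. The 8 macrophage and leukocyte markers summed to 219 to 616, 98.3 to 625 and 218 to 427 TPM. Lyz2, at 70.9 to 541 TPM, made up most of this sum in every library, while Ptprc had 0.5 to 3.51 TPM. The 7 cardiomyocyte markers summed to 14.2 to 41.6, 10.0 to 34.1 and 10.3 to 64.3 TPM, of which Tnnt2 made up most, and 1 of them had a mean of at least 1 TPM. The 6 melanocyte markers summed to 8.74 to 22.2, 5.5 to 18.8 and 6.96 to 14.8 TPM. The 6 epithelial markers summed to 5.8 to 11.7, 5.31 to 9.13 and 3.55 to 8.27 TPM, nearly all from Krt18, with Krt14 at 0 in every library. In bulk RNA, a change in the number of cells of a type and a change in RNA per cell cannot be told apart.

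Mbd1 was high with LDL and not with oxLDL. MBD1 binds methylated CpG and, through ATF7IP, works with the histone methyltransferase SETDB1 in repression. Its level was 57.2, 73.8 and 100.2 TPM in LDL libraries 1, 2 and 3, 27.8, 28.0 and 30.0 TPM in the oxLDL libraries, and 29.0, 30.4 and 28.0 TPM in the Control libraries. Every LDL library lay above all 6 others, and the oxLDL and Control values were interleaved. The LDL libraries also differed more among themselves, with a mean of 77.1 ± 21.7 TPM (SD, n = 3) and a coefficient of variation of 28.1%, against 28.6 ± 1.24 TPM (SD, n = 3) and 4.32% with oxLDL and 29.1 ± 1.22 TPM (SD, n = 3) and 4.18% in Control. Between libraries of the same number, LDL over Control was 1.97, 2.43 and 3.58 for numbers 1, 2 and 3, and oxLDL over Control was 0.958, 0.92 and 1.07. The log2 difference of LDL against Control was 1.34, a 2.64-fold higher mean, and 76 of the 13495 genes tested had a larger difference in either direction. These values chose the family and are given as a description.

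Mbd1 made up 11.9, 13.9 and 17.8% of the summed TPM of the 9 genes in the LDL libraries, 6.23, 5.82 and 6.26% in the oxLDL libraries, and 6.25, 6.39 and 5.58% in the Control libraries. In LDL library 3 its 100.2 TPM exceeded the 85.0 TPM of Dnmt1, while in LDL libraries 1 and 2 Dnmt1 was the higher, at 65.5 and 85.8 TPM.

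The comparison of oxLDL with Control asked whether the oxidised particle moves these genes. For Mbd1 the log2 difference was -0.03 (95% CI -0.40 to 0.35, limma adjusted p = 1). The Control libraries took part in choosing the gene, and the interval rests on a spread shared by all 9 libraries, to which the LDL libraries add most. Of the 8 members tested, 0 passed in limma and 0 had an unadjusted p under 0.05. Over all genes 0.0148% passed, or 0.126% with the replicate number as a block, and 3.86% had an unadjusted p under 0.05. None of the 9 members had oxLDL libraries clear of the Control libraries, as 7.33% of all genes tested had.

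In the comparison of oxLDL with LDL, 1 of the 8 tested members passed, and over all genes 0.104% passed (0.0667% lower with oxLDL), or 0.259% with the block. The groups of 1 member, again Mbd1, did not overlap, as those of 8.31% of all genes tested. Mbd1 was lower with oxLDL than with LDL by a log2 difference of -1.36 (95% CI -1.74 to -0.99, limma adjusted p = 0.0286), or 0.371 of the LDL mean, and lower in 3 of 3 pairs of libraries of the same number. This test uses the LDL libraries that chose the gene and is no independent support for their level. Its adjusted p was over 0.05 in 7 of 9 fits with a single library removed: 0.0692, 0.0676 and 0.0597 without Control 1, 2 or 3, 0.175 without LDL 2, and 0.128, 0.162 and 0.0906 without oxLDL 1, 2 or 3. It was 0.0112 without LDL 1 and 0.04 without LDL 3. A fit of the oxLDL and LDL libraries alone gave 0.175, a prior without a mean trend 0.0535, and no filter on low values 0.0765; the difference itself stayed between -1.56 and -1.16 over the fits that left out 1 library.

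Some marker sums fell from LDL library 1 to LDL library 3, while Mbd1 rose. Mbd1 was lowest in LDL library 1 and highest in LDL library 3, and the fibroblast sum ran the opposite way, at 14239, 13752 and 12718 TPM in LDL libraries 1, 2 and 3. The fibroblast list itself was split between LDL libraries 1 and 3. Pdgfra (155 and 193 TPM), Prrx1 (236 and 263 TPM), Sox9 (38.2 and 47.3 TPM) and Dcn (2505 and 2598 TPM) were higher in library 3. The other markers of that list were lower there, among them Vim (5303 and 4749 TPM). The epithelial sum, at 11.7, 8.91 and 5.8 TPM, ran the same way as the fibroblast sum, and so did the cardiomyocyte sum, at 41.6, 15.6 and 14.2 TPM. The endothelial sum was 322, 128 and 139 TPM and the macrophage sum 616, 219 and 533 TPM in these libraries. Of these endothelial and macrophage sums, all but the endothelial 322 TPM lay inside the range of the oxLDL libraries. The melanocyte sum, at 22.2, 8.74 and 15.2 TPM with LDL, did not keep the order of the fibroblast sum. By library number the fibroblast sum also fell in Control (14796, 14386 and 13876 TPM) but not with oxLDL (13973, 13107 and 15393 TPM). The epithelial sum fell in both, at 9.13, 5.46 and 5.31 TPM with oxLDL and 8.27, 3.63 and 3.55 TPM in Control. The cardiomyocyte sum fell with oxLDL (34.1, 18.5 and 10.0 TPM) but not in that order in Control (64.3, 10.3 and 24.1 TPM). Without the 3 libraries numbered 1, a choice made after seeing the data, the Mbd1 difference was 1.53 between LDL and Control and -1.54 between oxLDL and LDL (limma adjusted p = 0.0959).

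Of all the markers listed, 6 had LDL libraries clear of the Control libraries, and they are named for that pattern. Of all genes tested, 10.7% had such groups, so the count by itself is no result about the markers. The 3 that could be tested were among the 14 valve interstitial and fibroblast markers, and 0 came from the other lists. None of the 3 passed without the block, where 0.333% of all genes passed. Acta2, the smooth muscle actin of activated fibroblasts, had 605, 642 and 519 TPM with LDL. It had 677, 744 and 782 TPM with oxLDL, and 725, 928 and 842 TPM in Control. Its difference of LDL minus Control was -0.50 (limma adjusted p = 0.207, or 0.0697 with the block). Its LDL libraries were below all 6 others. Tcf21, a fibroblast transcription factor, averaged 112 ± 5.64 TPM with LDL, 125 ± 8.29 TPM with oxLDL and 169 ± 40.6 TPM in Control (SD, n = 3 each). Its difference of LDL minus Control was -0.56 (limma adjusted p = 0.349, or 0.0815 with the block). Prrx1, a homeobox gene of mesenchymal cells, averaged 259.6 ± 22.4 TPM with LDL, 226 ± 19.5 TPM with oxLDL and 204 ± 10.6 TPM in Control (SD, n = 3 each). It was higher with LDL than in Control by 0.34, with a limma adjusted p of 0.267, or 0.0495 with the replicate block. The other 3 were under the testing level. Myh6, a myosin of heart muscle, had 0.67, 0.78 and 0.65 TPM with LDL, 0.23, 0 and 0.01 TPM with oxLDL, and 0.06, 0 and 0 TPM in Control, so that LDL was above all 6 other libraries. Actc1, the cardiac actin, had 1.95, 0.35 and 1.04 TPM with LDL, 0.8, 0.1 and 0.13 TPM with oxLDL, and 0.31, 0.04 and 0.04 TPM in Control. Tyr, the melanocyte tyrosinase, had 0.67, 0.25 and 0.7 TPM with LDL, 0.17, 0.04 and 0.51 TPM with oxLDL, and 0.2, 0.11 and 0.13 TPM in Control. The part of the marker sums and of these 6 genes in the level of Mbd1 was not tested.

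**Figure D2:**
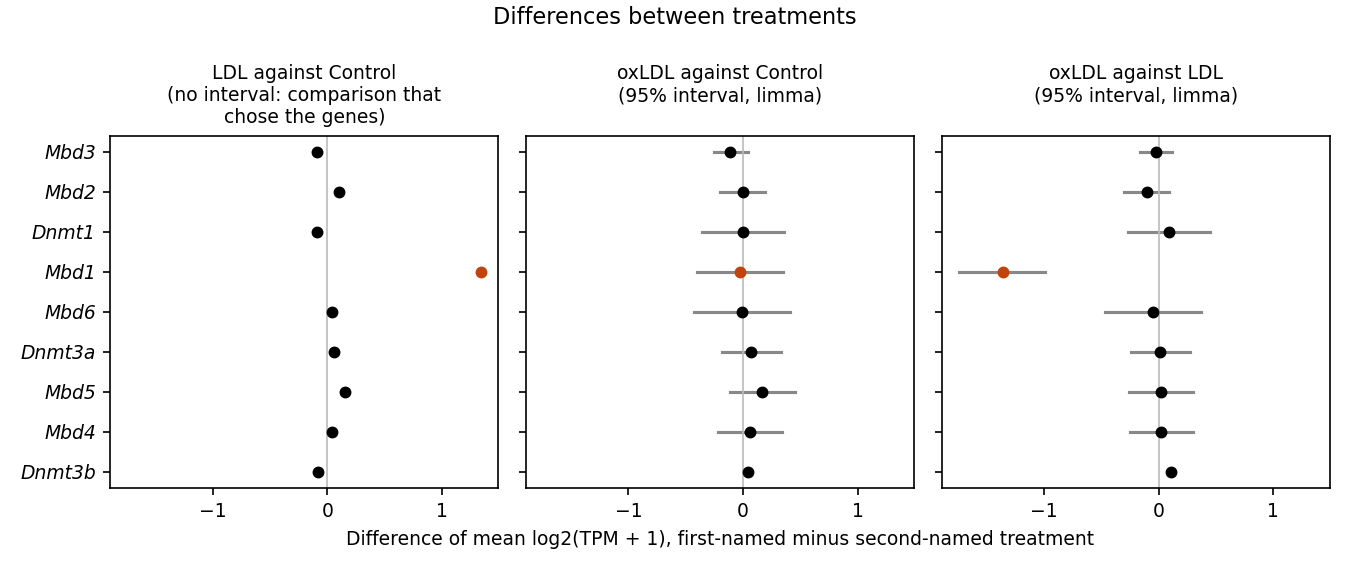
Differences of mean log2(TPM + 1) for the 9 genes in the 3 comparisons, first-named treatment minus second, with 95% intervals from limma for the 8 genes tested in the oxLDL comparisons. Mbd1 (red) stands at 1.34 for LDL against Control, -0.03 for oxLDL against Control and -1.36 for oxLDL against LDL, and the other genes lie between -0.11 and 0.17. Mbd1 was chosen by its LDL values, so its distance from the others in the comparisons with LDL is part of the choice.

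The other 5 MBD genes lay close to their Control levels with either lipoprotein. Between LDL and Control, 1 of the 9 members (Mbd1) had groups that did not overlap, as 10.7% of all genes tested had, and 0.333% of all genes passed in limma, or 0.852% with the block. Mbd2 had 141, 148 and 156 TPM with LDL, 129, 136 and 149.7 TPM with oxLDL, and 132, 130.2 and 154 TPM in Control. Its LDL value was above that of the same-numbered Control library in all 3 pairs, by 1.01 to 1.14 times, but the groups overlapped. Between oxLDL and Control it differed by -0.00 (95% CI -0.20 to 0.19), and between oxLDL and LDL by -0.10 (95% CI -0.30 to 0.09). Mbd3 had 174, 171 and 171 TPM with LDL, 178, 173 and 159 TPM with oxLDL, and 187, 189 and 174 TPM in Control. Each LDL and each oxLDL value lay below that of the same-numbered Control library, at 0.908 to 0.984 and 0.916 to 0.948 of it, and the groups again overlapped. For oxLDL against Control the Mbd3 difference was -0.11 (95% CI -0.25 to 0.04).

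Mbd4 had 3.58, 3.88 and 3.65 TPM with LDL, 3.47, 3.59 and 4.33 TPM with oxLDL, and 3.39, 3.25 and 4.15 TPM in Control. Its groups overlapped in every comparison, with a difference of 0.06 for oxLDL against Control (95% CI -0.22 to 0.34). Mbd5 and Mbd6, whose products bind the PR-DUB deubiquitinase that removes ubiquitin from histone H2A, moved little. Mbd5 averaged 10.4 ± 1.15 TPM with LDL, 10.6 ± 1.6 TPM with oxLDL and 9.26 ± 0.717 TPM in Control (SD, n = 3 each). Its oxLDL difference from Control, 0.17 (95% CI -0.11 to 0.45), was the largest of the members in that comparison, and it was higher in each pair of the same number, 1.09 to 1.24 times. Mbd6 had 14, 18.3 and 21.5 TPM with LDL, 14.6, 15.7 and 21.7 TPM with oxLDL, and 15.1, 19.6 and 17.1 TPM in Control. Its coefficient of variation was 20.9% with LDL and 22.2% with oxLDL, the highest of these 5 genes in both, against 13% in Control, and its interval for oxLDL against Control was the widest of the 8 members, -0.43 to 0.41.

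Among the methyltransferases the maintenance enzyme Dnmt1 dominated. It made up 81.1 to 85.5% of the summed TPM of the 3 methyltransferase genes with LDL, 82.0 to 85.3% with oxLDL and 81.6 to 86.1% in Control. Its level was 65.5, 85.8 and 85.0 TPM with LDL, 69.7, 97.1 and 85.7 TPM with oxLDL, and 72.5, 81.4 and 97.8 TPM in Control. The spread within each treatment exceeded the distance between treatments: means were 78.8 ± 11.5, 84.2 ± 13.8 and 83.9 ± 12.9 TPM (SD, n = 3 each) in that order. The difference was -0.09 for LDL against Control, 0.00 for oxLDL against Control (95% CI -0.36 to 0.36) and 0.09 for oxLDL against LDL (95% CI -0.27 to 0.45).

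Dnmt1 is known to be made mainly in dividing cells, and its level was set beside 24 cell cycle and replication genes. Their summed level was 2245, 2795 and 2594 TPM in LDL libraries 1, 2 and 3, 2387, 3130 and 2555 TPM in the oxLDL libraries, and 2473, 2815 and 3216 TPM in the Control libraries. Within every treatment the 3 libraries had the same order for Dnmt1 as for this sum, with the library numbered 1 lowest. Uhrf1, whose product brings DNMT1 to freshly replicated DNA, had 59.3, 73.4 and 76.9 TPM with LDL, 66.6, 92.1 and 80.1 TPM with oxLDL, and 70.5, 72.2 and 100.0 TPM in Control, and was also lowest in the libraries numbered 1. Of the 24 cell cycle genes, 0 passed in limma in any comparison, with or without the block, and 0 had an unadjusted p under 0.05 without it. With it, 8 of the 24 had an unadjusted p under 0.05 for LDL against Control, where 13.1% of all genes had one. Single differences there ran from -0.31 to -0.00. Their median differences were -0.14, -0.06 and 0.09 for LDL and oxLDL, each against Control, and for oxLDL against LDL.

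**Figure D3:**
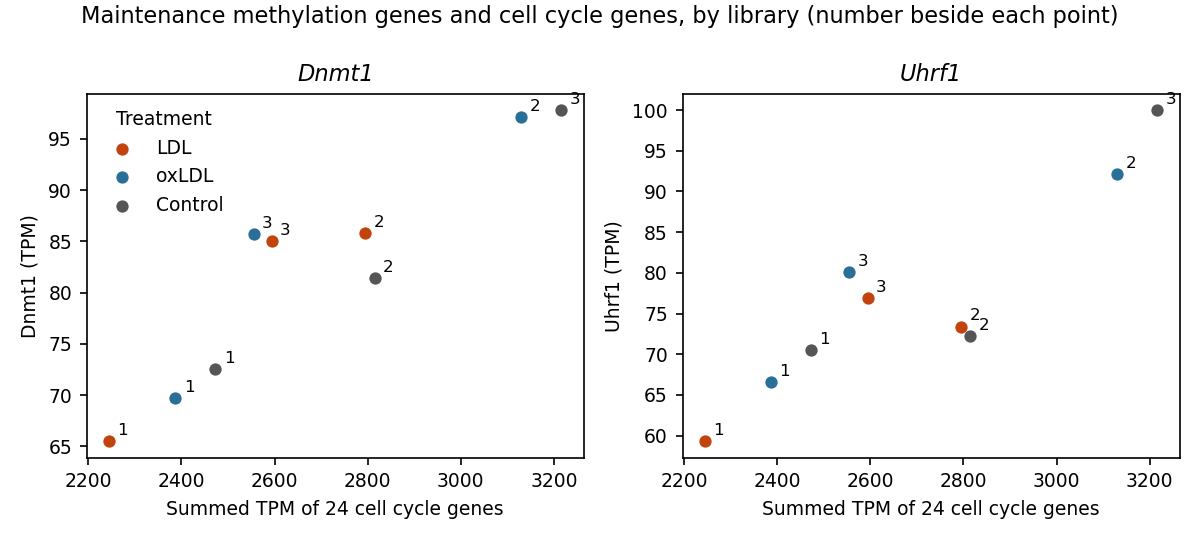
TPM of Dnmt1 (left) and Uhrf1 (right) against the summed TPM of 24 cell cycle genes, 1 point per library, coloured by treatment and marked with the library number. Libraries numbered 1 lie lowest in every treatment, at 65.5 to 72.5 TPM for Dnmt1, and the treatments are interleaved.

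The de novo enzymes were low. Dnmt3a had 14.6, 17.1 and 13.8 TPM with LDL, 14.4, 16.1 and 15.4 TPM with oxLDL, and 15.7, 12.5 and 15.4 TPM in Control, with a difference of 0.07 for oxLDL against Control (95% CI -0.18 to 0.33). Dnmt3b had 0.62, 0.84 and 0.69 TPM with LDL, 0.91, 0.69 and 0.97 TPM with oxLDL, and 0.74, 0.62 and 1.09 TPM in Control. Both genes overlapped between all treatments, and Dnmt3b was too low for the test. Dnmt3l, which makes an inactive partner of the de novo enzymes and is best known from germ cells, was listed above Dnmt3b in every library, at 8.4, 7.61 and 12.1 TPM with LDL, 8.24, 6.9 and 9.68 TPM with oxLDL, and 5.23, 5.61 and 7.81 TPM in Control. It differed by 0.51 for LDL against Control and did not pass (limma adjusted p = 0.613, or 0.0629 with the block, unadjusted p = 0.0277). Its difference of 0.37 for oxLDL against Control did not pass either (limma adjusted p = 1, or 0.348 with the block).

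The libraries do not mark strand, so neighbours and overlaps bear on these levels. Positions are from GENCODE M21 (GRCm38, the assembly also called mm10). Mbd1 lies on chromosome 18 from 74267605 to 74282732, plus strand, with no annotated gene over it. The next gene, Cfap53, starts 357 bp beyond it on the same strand and was at 0 to 0.13 TPM in the 9 libraries, with 0 to 0.06 TPM with LDL. Dnmt3a and Dnmt3b each overlap an antisense gene, Dnmt3aos at 0 to 0.1 TPM and Dnmt3bos at 0 TPM in every library. Mbd5 is overlapped for 770 bp by Orc4 on the other strand, at 32.0 to 40.4 TPM, and holds the pseudogene Gm13509, listed at 34.1 to 40.5 TPM, above Mbd5 itself. Reads of these pairs could not be told apart by strand. The start of Mbd4 lies 98 bp from Ift122 and the end of Mbd6 lies 5 bp from Dctn2, and Dctn2 was at 170.5 to 195 TPM. Dnmt3l overlaps Aire for 1664 bp, and Aire was at 0 TPM in every library. Dnmt3c, a rodent relative of Dnmt3b that lies 8921 bp from it, was not analysed here.

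The wider methylation machinery was examined through 6 lists with 74 genes, of which 65 were tested. In limma 0 of these 65 passed in any of the 3 comparisons, with or without the block, beside the shares of all genes given above. At an unadjusted p under 0.05 without the block there were 4, 2 and 2 of the 65 genes, against 6.65, 3.86 and 3.91% of all genes. The order is LDL and oxLDL, each against Control, and then oxLDL against LDL. With the block the share of all genes was 13.1, 9.08 and 8.51%. The block counts were 5, 2 and 1 of 11 genes for demethylation and repair, and 3, 1 and 1 of 12 NuRD genes. They were 1, 1 and 2 of 11 methyl donor genes and 1, 0 and 1 of 13 partners. For the 10 readers they were 0, 1 and 0, and for the 8 PR-DUB genes 0, 0 and 0. The median differences were -0.00, 0.03 and 0.02, beside medians of -0.0018, -0.0028 and 0.0009 over all genes tested. Single genes ranged from -0.32 to 0.51 for LDL against Control. Mbd1 was chosen by its difference in that comparison, and 76 of the 13495 genes tested had a larger one. The range is therefore not set against Mbd1.

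Of 12 other readers, 10 were tested and 0 passed, with median differences of 0.07, 0.09 and 0.01 in the 3 comparisons. Zbtb38, a zinc finger reader of the Kaiso family, was the 1 reader whose groups did not overlap in a comparison, with 40.9, 44.6 and 46.1 TPM with oxLDL against 36.1, 33.7 and 37.9 TPM in Control. Such groups were found in 7.33% of all genes tested for oxLDL against Control, so 1 of the 10 readers is by itself no result about them. Zbtb38 ranged from 33.7 to 46.7 TPM with LDL. Its difference of 0.28 did not pass (limma adjusted p = 1, unadjusted p = 0.0385). The germline genes Mbd3l1 and Mbd3l2 were listed at 0 in every library.

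Of 13 genes for demethylation, repair and related methyltransferases, 11 were tested and 0 passed. The TET enzymes, which oxidise methylcytosine, were low: Tet3 had 5.16 to 6.99 TPM, Tet2 1.69 to 3.79 TPM and Tet1 0.44 to 1.25 TPM over the 9 libraries. Tet1 was under the testing level and averaged 0.477 ± 0.0351 TPM with LDL, 0.633 ± 0.227 TPM with oxLDL and 1.02 ± 0.208 TPM in Control (SD, n = 3 each), with LDL below all Control libraries. Tdg, the glycosylase that excises oxidised methylcytosine, averaged 40.8 ± 0.926 TPM with LDL, 43.2 ± 4.6 TPM with oxLDL and 42.0 ± 1.91 TPM in Control. Gadd45b, a stress gene linked to active demethylation, had 24.6, 24.6 and 21.6 TPM with LDL, 32.8, 29.7 and 26.9 TPM with oxLDL, and 30.6, 30.9 and 27.6 TPM in Control. LDL lay below both other groups in every library, and neither difference passed. The difference of LDL minus Control was -0.32 (limma adjusted p = 0.37, or 0.0597 with the block). That of oxLDL minus LDL was 0.32 (limma adjusted p = 0.73, or 0.108 with the block). Trdmt1, a methyltransferase of transfer RNA related to the DNMT enzymes, averaged 9.06 ± 1.47 TPM with oxLDL and 12.0 ± 1.26 TPM in Control without overlap, and did not pass (limma adjusted p = 1).

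Of 15 partners of MBD1 and the methyltransferases, 13 were tested and 0 passed, with medians of -0.01, -0.02 and 0.03. Setdb1, counted among the readers for its own MBD domain, averaged 20.3 ± 1.94 TPM with LDL, 20.2 ± 1.57 TPM with oxLDL and 19.3 ± 2.64 TPM in Control (SD, n = 3 each). Atf7ip had 25.6, 25.5 and 26.8 TPM with LDL, 21.6, 24.2 and 40.3 TPM with oxLDL, and 21.3, 21.6 and 25.3 TPM in Control. Its LDL libraries lay just above the Control libraries, oxLDL library 3 was the highest of all, and the difference of 0.19 for LDL against Control (95% CI -0.25 to 0.63) did not pass (limma adjusted p = 1). Cxxc1, which binds unmethylated CpG, lies on the same strand as Mbd1 and 46108 bp before it, with 1 pseudogene between. It had 40.9, 45.5 and 48.0 TPM with LDL, 37.3, 36.2 and 41.1 TPM with oxLDL, and 36.8, 38.8 and 37.2 TPM in Control. The LDL libraries were clear of Control, but the difference of 0.24 (95% CI 0.06 to 0.42) did not pass over all genes (limma adjusted p = 0.459, unadjusted p = 0.0132). Atf7ip and Cxxc1 were the 2 of 13 tested partners with LDL clear of Control, where 10.7% of all genes tested had such groups.

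The complexes around MBD2, MBD3, MBD5 and MBD6 and the methyl donor cycle gave no call. Over all genes 0.333, 0.0148 and 0.104% passed in the 3 comparisons, so 0 calls is by itself no result about these lists. All 12 NuRD genes were tested and 0 passed, with medians of 0.03, 0.02 and 0.00. Its 4 highest members were Cdk2ap1, Rbbp7, the deacetylase Hdac1 and the remodeller Chd4. Chd4 averaged 141 ± 13.9 TPM with LDL, 134 ± 11 TPM with oxLDL and 129 ± 5.66 TPM in Control (SD, n = 3 each), and Hdac1 135 ± 3.06, 132 ± 5.9 and 129.9 ± 5.27 TPM. Of 9 PR-DUB genes 8 were tested and 0 passed (medians -0.02, 0.04 and 0.03), and Bap1, its catalytic subunit, averaged 36.0 ± 4.29 TPM with LDL, 38.7 ± 3.99 TPM with oxLDL and 36.5 ± 2.92 TPM in Control. Of 13 genes that make or recycle S-adenosylmethionine, the donor of the methyl group, 11 were tested and 0 passed (medians -0.05, 0.04 and 0.08). Mat2a, which makes it, averaged 95.3 ± 7.57 TPM with LDL, 101 ± 4.38 TPM with oxLDL and 99.1 ± 5.61 TPM in Control.

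**Figure D4:**
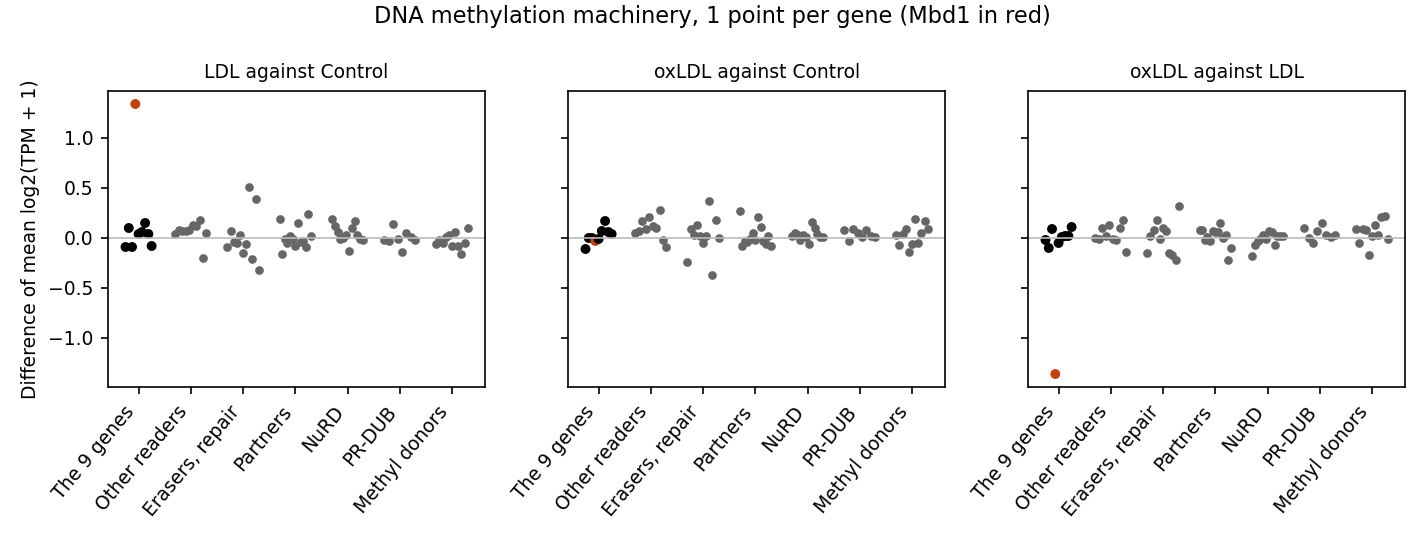
Difference of mean log2(TPM + 1) for the 9 genes and for the 65 tested genes of 6 lists of methylation machinery, 1 point per gene, in the 3 comparisons. The list genes span -0.32 to 0.51 for LDL against Control. Mbd1 (red) lies at 1.34 and -1.36 in the comparisons that hold LDL. It was chosen by its level with LDL, so the span of the lists is not set against it.

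The genes whose level over the 9 libraries was most like that of Mbd1 were found by Pearson's r on log2(TPM + 1) among the other 13494 tested genes, leaving out clone-named models. The points share the treatments and the library numbers, so r is a description and no p is given. The 8 most like were Rarb (r = 0.979), Nyap1 (0.974), Rab32 (0.969), Stbd1 (0.968), Zfp970 (0.968), Etfbkmt (0.964), Cyp26b1 (0.946) and Tmem119 (0.942). Rarb, a retinoic acid receptor, had 8.76, 13 and 15.6 TPM with LDL, 3.95, 4.08 and 3.87 TPM with oxLDL, and 3.75, 5.71 and 4.53 TPM in Control. Cyp26b1, which breaks down retinoic acid, had 52.1, 92.3 and 141 TPM with LDL, 24.9, 26.4 and 23.6 TPM with oxLDL, and 27.6, 26.5 and 43.6 TPM in Control. Zfp970, a zinc finger gene, had 11.8, 16.3 and 26.0 TPM with LDL, 7.18, 8.07 and 9.15 TPM with oxLDL, and 8.64, 8.7 and 6.99 TPM in Control. In all 8 genes, as in Mbd1, LDL library 1 was the lowest and LDL library 3 the highest of the LDL group. The genes were chosen for their likeness to Mbd1 over these libraries, so this order is part of the choice. Etfbkmt, a lysine methyltransferase of mitochondria, had an LDL mean 1.94 times that of Control, Stbd1, a glycogen-binding protein, 1.66 times, and Nyap1, Rab32 and Tmem119 between 1.31 and 1.37 times.

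In the opposite direction the 4 genes most unlike Mbd1 were Zbtb7c (r = -0.981), Mapk7 (-0.961), Mn1 (-0.935) and Gjb5 (-0.935). Zbtb7c, a zinc finger repressor, had 6.83, 6.89 and 6.43 TPM with LDL, 8.41, 8.53 and 8.51 TPM with oxLDL, and 8.42, 8.5 and 8.54 TPM in Control. Gjb5, a connexin, averaged 4.29 ± 0.163 TPM with LDL, 6.92 ± 0.432 TPM with oxLDL and 6.94 ± 0.683 TPM in Control (SD, n = 3 each). For the other 7 tested members, without Dnmt3b, r with Mbd1 was 0.546 for Mbd2, 0.309 for Mbd6, 0.279 for Mbd5, 0.0376 for Mbd4, 0.0122 for Dnmt3a, -0.0973 for Dnmt1 and -0.249 for Mbd3. Cxxc1, the neighbour on chromosome 18, ranked 20 of 13494 with r = 0.93.

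**Figure D5:**
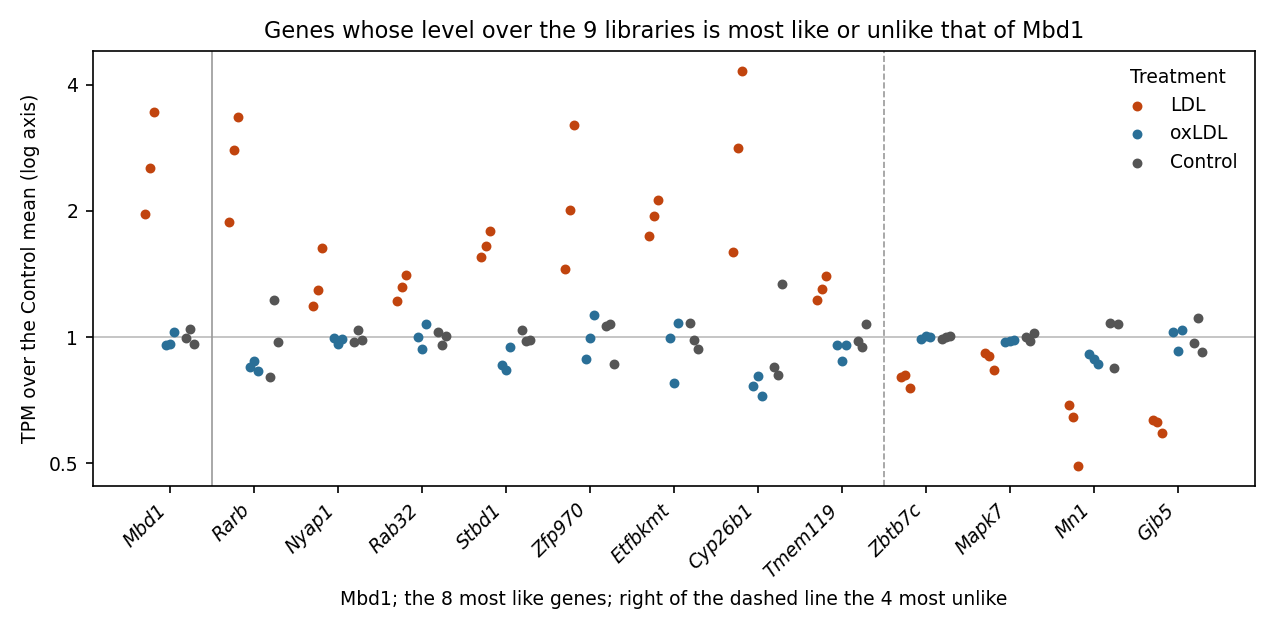
TPM of each library over the gene's Control mean (log axis) for Mbd1, the 8 genes most like it and, right of the dashed line, the 4 most unlike it over the 9 libraries. The genes were chosen for this pattern, with LDL points (red) high left of the dashed line and low right of it. The oxLDL means lie between 0.767 (Cyp26b1) and 1 times the Control mean. For Stbd1 and Cyp26b1 the oxLDL libraries lie below all Control libraries.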

How the data were processed

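TPM values for 51810 gene symbols in 9 libraries were deposited by the authors. Per the submitters' processing notes, the tools were RSEM 1.3.1 and STAR (version not given) and the build was mm10; no annotation is named in the sources used here. Each column summed to 999998.81 to 1000000.43 TPM, and 0 columns were left out. Per the labels' protocols, libraries were made from amplified cDNA with a TruSeq kit, whose version used here does not mark strand. TPM keeps no depth, so counting intervals and detection limits are left out, and a listed 0 can be a failed estimate.

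The 13495 genes whose mean reached 1 TPM were analysed as log2(TPM + 1) with limma 3.58.1 in R 4.3.3 (mean-dependent prior, all 9 libraries, two-sided, Benjamini-Hochberg over all genes tested, threshold 0.05). The code was tested on simulated data. No exact permutation test was made, since 3 libraries against 3 allow no p under 0.1. The members and lists were chosen with earlier results of these data known. Named genes were the members, any gene of the lists of readers, of demethylation and repair and of partners, the 4 highest or any called gene of the other lists, neighbours in the annotation, and the genes most like and unlike Mbd1. Neighbours came from GENCODE M21, which held 47624 of the 51810 symbols (91.9%), and promoters from RefSeq. One gene of the list of readers is counted with its list and is not reported by itself here. Chd3, Mta3 and Peg10 were named after their values were seen.

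Sample titles give the replicate numbers. To check whether they pair the libraries, each library's deviations from its group mean were correlated. The r was 0.172 to 0.497 in 9 pairs that share a number and -0.309 to 0.13 in 18 pairs that do not. The numbers were therefore taken as a pairing in the ratios and in the fits with the block. The main fit leaves this pairing out, and its p-values are the ones given unless the block is named. With the block, the genes called rose from 45 to 115 for LDL against Control. They rose from 2 to 17 for oxLDL against Control and from 14 to 35 for oxLDL against LDL.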

Additional observations from a re-analysis of the deposited data

Results flagged for a closer look

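Mbd1 is given here because its LDL and oxLDL effects differed past the threshold, in libraries that include those by which the gene was chosen. The oxLDL effect minus the LDL effect, both against the same Control libraries, was -1.36 on the log2 scale (95% CI -1.74 to -0.99, limma adjusted p = 0.0286), with oxLDL lower in 3 of 3 pairs of libraries of the same number. With Control shared, this is the comparison of oxLDL with LDL, so it gives no independent support for the LDL level. The call was lost in 7 of 9 fits with a single library removed, with adjusted p between 0.0112 and 0.175 over the 9. The other 7 tested members gave no such difference past the threshold. With 3 libraries in each group, no library was tested as an outlier.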

How the results depend on the processing

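Mbd1 differed by 1.13 to 1.53 for LDL against Control, -0.06 to 0.00 for oxLDL against Control and -1.56 to -1.16 for oxLDL against LDL over the fits that left out 1 library, and by 1.23 to 1.35 for LDL against Control under the other alternatives that kept all libraries. Its call for oxLDL against LDL ended, at a difference of -1.36, with no filter on low values (adjusted p = 0.0765), no mean trend in the prior (0.0535) or the 2 compared groups alone (0.175), and at -1.54 without the libraries numbered 1, so the count of members called there was 0 under each of these and ranged from 0 to 1 over the fits that left out 1 library; the cause was not tested. It kept the call with a pseudocount of 0.5 or 5, a filter at 5 TPM, median-ratio scaling, quantile normalization and the replicate block (adjusted p = 0.0266), and the block changed no other call of a member or of the 65 machinery genes.

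The genes called numbered 45 and 2 for LDL and oxLDL, each against Control, and 14 for oxLDL against LDL; with the replicate block 115, 17 and 35; with no filter 19, 10 and 8; with the 2 compared groups alone 9, 1 and 6. Leaving out 1 library gave 4 to 37, 1 to 3 and 1 to 10. Without the libraries numbered 1 there were 11 and 7 in the comparisons with LDL, with a pseudocount of 5 there was 1 for oxLDL against Control, and with no mean trend 1 and 8 in the oxLDL comparisons.

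The other 7 tested members stayed between -0.21 and 0.24 in every comparison and alternative, with 0 calls in the oxLDL comparisons. Small differences changed sign when 1 library was left out. For oxLDL against Control these were Mbd1, at 0.00 without Control 2, Mbd2 (-0.06 to 0.07), Mbd4 (-0.02 to 0.15), Mbd6 (-0.17 to 0.10), Dnmt1 (-0.11 to 0.13) and Dnmt3a (-0.03 to 0.13), and without the libraries numbered 1 Mbd2 and Mbd6 were both at 0.01; with median-ratio scaling Mbd2 was at 0.00. For oxLDL against LDL they were Mbd3 (-0.05 to 0.03), Mbd4 (-0.05 to 0.07), Mbd5 (-0.09 to 0.09), Mbd6 (-0.21 to 0.09), Dnmt1 (-0.03 to 0.22) and Dnmt3a (-0.05 to 0.10). Depth is unknown, so it cannot be said how far counting error limits Dnmt3b, Tet1 and other genes near 1 TPM.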

Other observations

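Of 20 imprinted genes, expressed from 1 parental copy, 18 were tested and 0 passed in limma in any comparison, with 3, 1 and 0 at an unadjusted p under 0.05 for LDL and oxLDL, each against Control, and for oxLDL against LDL, and medians of -0.05, -0.07 and -0.03. Over all genes 0.333, 0.0148 and 0.104% passed and 6.65, 3.86 and 3.91% had such a p, so 0 calls among 18 genes is near the background. With the block 5, 4 and 2 of the 18 had an unadjusted p under 0.05, against 13.1, 9.08 and 8.51% of all genes. Gnas, the highest of them, averaged 1099 ± 48.9 TPM with LDL, 1079 ± 42.2 TPM with oxLDL and 1125 ± 53.4 TPM in Control (SD, n = 3 each). Peg10, chosen after its values were seen, had 31.0, 44.0 and 33.0 TPM with LDL, 33.9, 37.9 and 35.0 TPM with oxLDL, and 46.3, 52.0 and 49.8 TPM in Control. Both lipoprotein groups lay below Control without overlap, by -0.46 each, and neither passed (limma adjusted p = 0.305 and 0.821, or 0.0586 and 0.131 with the block). These comparisons share the Control libraries.

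Of 12 germline genes that promoter methylation is known to keep silent in body cells, 2 were listed at 0 in every library and 1, Ddx4, a germ cell helicase, had a mean of at least 1 TPM. Ddx4 had 0.7, 2.61 and 1.74 TPM with LDL, 1.02, 2.66 and 2.28 TPM with oxLDL, and 0.62, 3.44 and 1.32 TPM in Control, with the library numbered 2 highest in every treatment. It did not pass in limma (adjusted p = 1 in all 3 comparisons).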
